A study of Saccharomyces cerevisiae with 55 samples.

Results

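HXT13, HXT15, HXT16 and HXT17 encode 4 closely related hexitol transporters of budding yeast, and SOR1 and SOR2 encode a pair of near-identical sorbitol dehydrogenases. The 6 genes were chosen by symbol in the platform annotation, 1 probe each, of 5540 genes measured, and each gave a value in 54 of 54 samples. RNA of each mutant strain was compared on 2-colour arrays with RNA of a parental strain, MDY453 or MDY470, which carries unsubstituted H4. The mutants replace lysine 5, 8, 12 or 16 of the histone H4 tail by arginine in all 15 combinations, from the single mutants K5R, K8R, K12R and K16R up to the quadruple mutant K5R/K8R/K12R/K16R. Each mutant had 3 to 5 samples. Every mutant had a pair of strains except K8R/K12R with 1 strain and the quadruple mutant with 3. MDY453 was the only partner of the quadruple and K5R/K12R/K16R strains, and MDY470 the only partner of the K8R/K12R strain. The sources used here do not give mating type, other alleles or growth conditions, carbon source included.

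Values are log2 ratios after each array was centred on its median, so that a value of -1 means a level 2 times lower. Negative values likely mean less RNA in the mutant: the parental strain was in channel 1 of every array, but neither the dyes nor the direction of the deposited ratio is stated. A value was called when limma's adjusted p (Benjamini-Hochberg over the 5540 genes) was under 0.05, and values after ± are standard deviations over samples for means and standard errors for fitted values. Tests of a mutant against 0 take no account of how much parental cultures vary. The p-values measure the spread between these samples, part of which may be technical. The samples are bulk cultures, in which fewer cells that express a gene and less RNA per cell cannot be told apart.

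Hexitols such as sorbitol and mannitol are sugar alcohols that yeast can take up and oxidise. The transporters belong by sequence to the hexose transporter family and carry mannitol and sorbitol, and sorbitol dehydrogenase oxidises sorbitol to fructose, which then enters glycolysis. Genes close to chromosome ends are held at low expression in part by Sir proteins, which bind H4 tails that are not acetylated at lysine 16. Arginine keeps the positive charge of lysine and cannot be acetylated.

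The position near chromosome ends was checked in the reference gene order. SOR2 (YDL246C) and HXT15 (YDL245C) lie side by side on chromosome IV with 2 and 3 annotated genes between them and the end. SOR1 (YJR159W) and HXT16 (YJR158W) form the matching pair on chromosome X, also with 2 and 3 genes outside them. HXT17 (YNR072W) on chromosome XIV has 6 genes outside it, and HXT13 (YEL069C) on chromosome V has 8. Because the members of each pair are near-identical in sequence, a probe may pick up RNA of both copies, and the files do not say how far this happened. RNA of one copy therefore cannot be told from that of the other. HXT15 and HXT16 are such a pair, and so are SOR1 and SOR2, and HXT13 and HXT17.

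The log2 ratios of the transporter genes lay below 0 throughout. All 4 did so in 54 of 54 samples, and 55 of their 60 mutant values were called lower and 0 higher. The background for a single mutant value was 14.8% of all gene values lower and 14.5% higher. HXT15 was called lower in 15 of 15 mutants, HXT13 in 14, and HXT17 and HXT16 in 13 each. HXT15 was the single gene of 5540 called lower in all 15 mutants, and 26 genes (0.469% of all genes) were called lower in at least 13. Ranked by the median over the 15 mutants, HXT15 was 4th lowest of 5540 genes at -1.92, HXT16 5th at -1.79, HXT17 9th at -1.66 and HXT13 10th at -1.62. The median over all genes was -0.00068. The dehydrogenase genes were called less widely, with 16 of 30 mutant values lower, 1 higher and 13 not called, and ranked 78th for SOR1 and 242nd for SOR2.

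**Figure D1:**
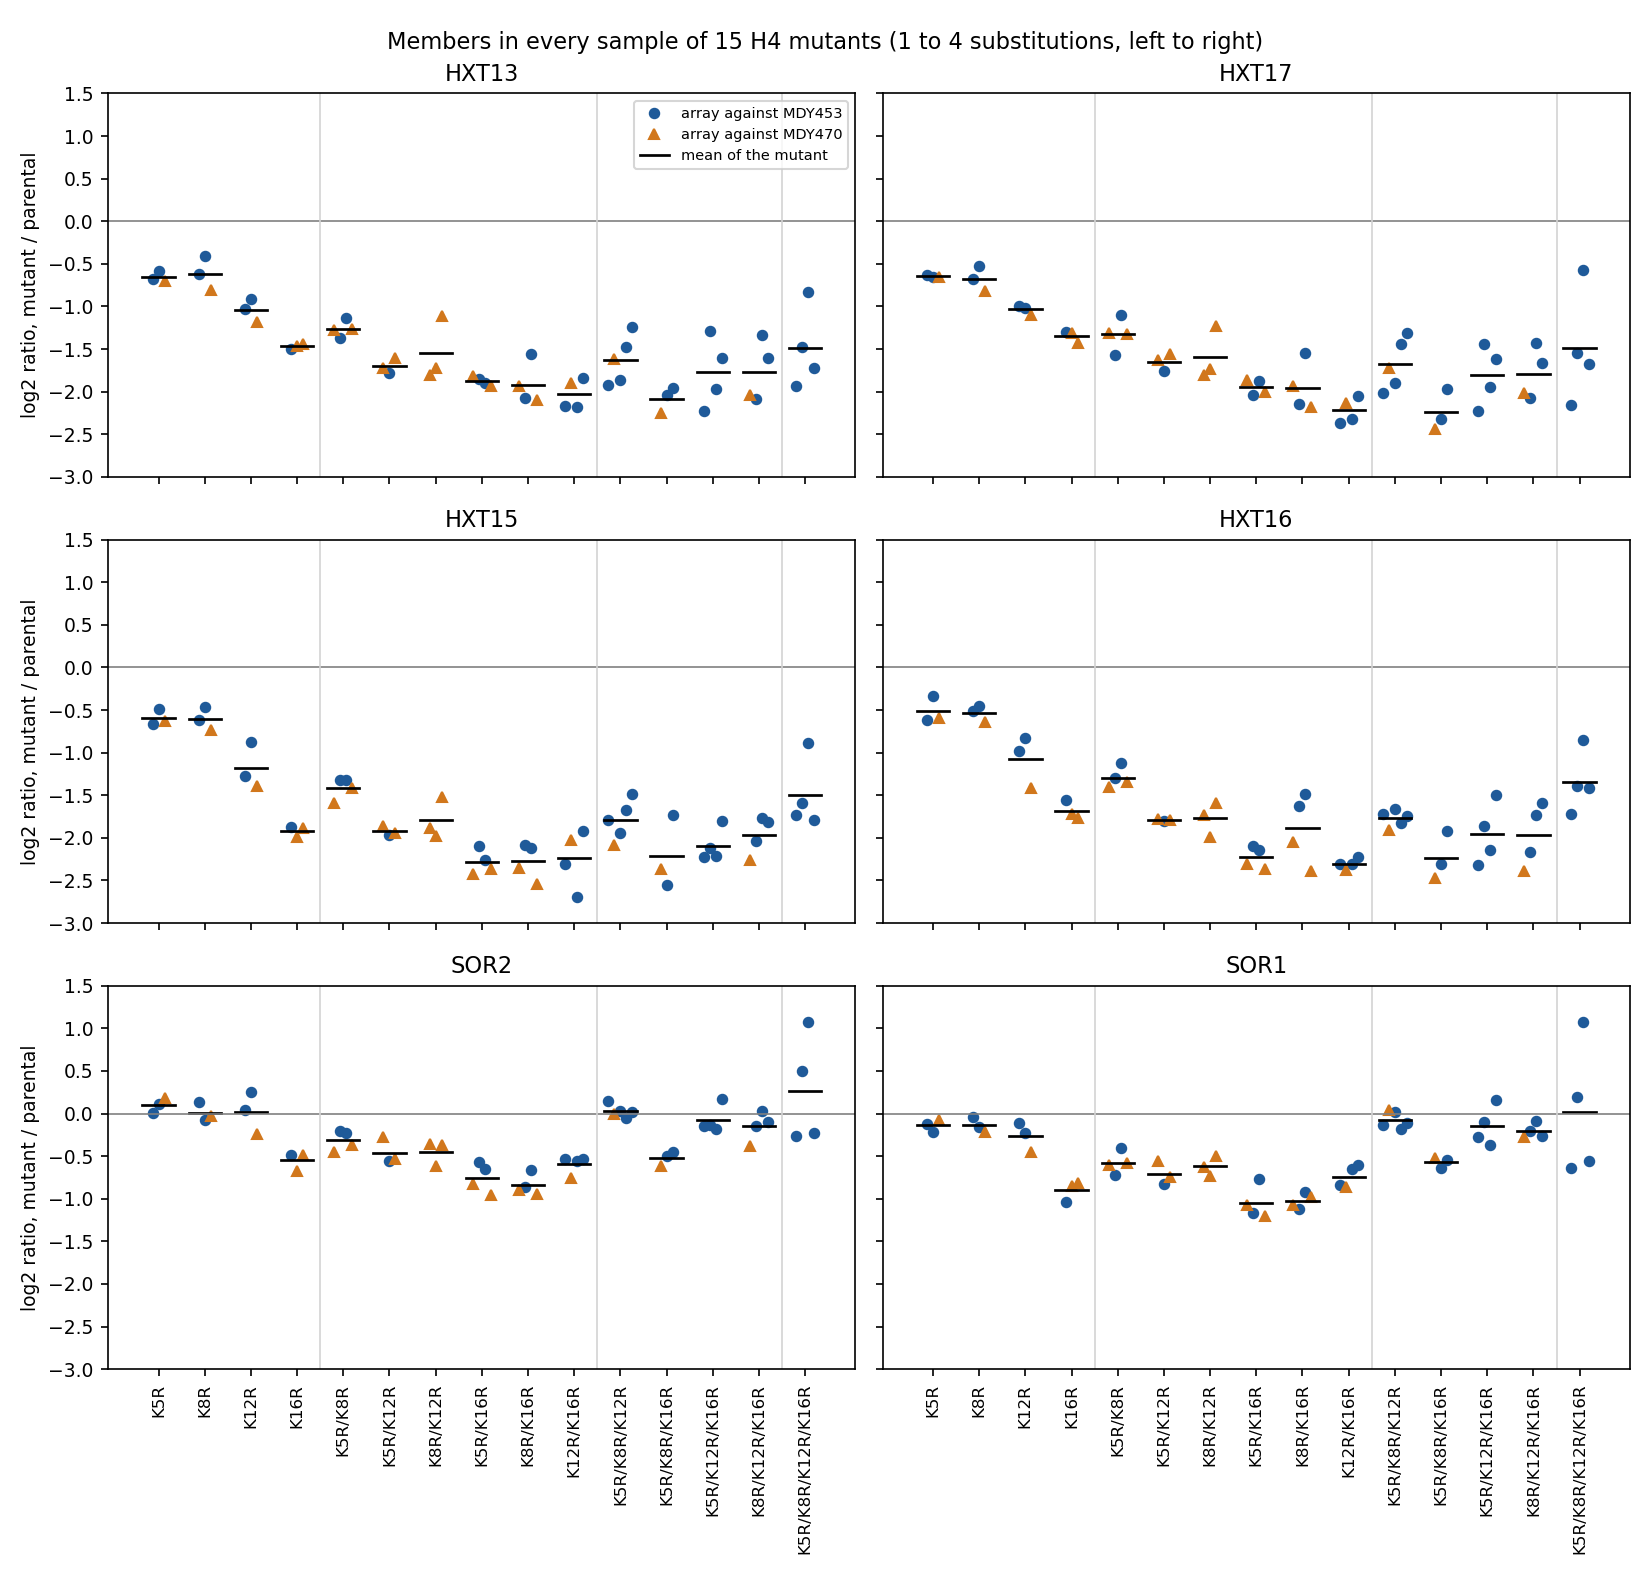
Log2 ratio (vertical axis, mutant over parental) of each member in every sample of the 15 mutants (horizontal axis, 1 to 4 substitutions from left to right); circles are arrays against MDY453, triangles arrays against MDY470, and bars mutant means. All points of the 4 HXT genes lie below 0, while SOR1 and SOR2 lie near 0 in most mutants with K5R, K8R or K12R alone and in the triple mutants that hold K12R.

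Single substitutions at lysine 5 or 8 lowered some of the transporters, HXT13 and HXT15 in K5R cells and HXT15 in K8R cells. In K5R cells HXT15 had log2 ratios of -0.67, -0.49 and -0.63, a fitted value of -0.60 ± 0.15 (adjusted p = 0.0383, 1.51-fold lower). HXT13 had -0.68, -0.59 and -0.71 in the same samples and was also called (fitted -0.66 ± 0.16, adjusted p = 0.0383). All 3 samples of each gene lay below 0. Only 6 genes of 5540 (0.108%) were called lower in the K5R mutant, and these 2 had the lowest values among them. HXT17 (-0.65 ± 0.01, adjusted p = 0.057) and HXT16 (-0.51 ± 0.16, adjusted p = 0.0642) were not called.

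In K8R cells HXT15 had -0.62, -0.46 and -0.74 and was called (fitted -0.62 ± 0.15, adjusted p = 0.039). It was 1 of 7 genes called lower in that mutant (0.126%), beside among others STL1, a glycerol importer gene, and IMA2, an isomaltase gene near a chromosome end. The other 3 transporters averaged -0.61 ± 0.20 for HXT13, -0.67 ± 0.15 for HXT17 and -0.53 ± 0.10 for HXT16, with adjusted p between 0.0549 and 0.0667. The K5R and K8R calls rest on few samples: leaving out any 1 of the 3 K5R samples ended both K5R calls, leaving out either of 2 K8R samples ended the K8R call, and within MDY453 arrays alone none of the 3 was called.

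K12R alone and K16R alone each lowered all 4 transporters. HXT15 had -1.28, -0.87 and -1.39 in K12R cells, and -1.88, -1.99 and -1.88 in K16R cells. The fitted values were -1.19 ± 0.15 for K12R (adjusted p = 8.38e-07) and -1.92 ± 0.15 for K16R (adjusted p = 8.30e-15, 3.79-fold lower). The samples of the 2 mutants do not overlap. HXT16 averaged -1.08 ± 0.30 in K12R cells and -1.68 ± 0.11 in K16R cells, HXT13 -1.04 ± 0.14 and -1.47 ± 0.03, and HXT17 -1.04 ± 0.06 and -1.35 ± 0.07 in that order of mutants (n = 3 each). The background of lower calls was 1.08% in the K12R mutant and 9.78% in the K16R mutant. Within MDY453 arrays alone none of the 4 transporters was called in K12R.

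Averaged over the 4 transporters, the lowest mutants were K12R/K16R (-2.20), K5R/K8R/K16R (-2.19), K5R/K16R (-2.08) and K8R/K16R (-2.01). HXT15 had -2.42, -2.10, -2.26 and -2.37 in K5R/K16R cells. It had -2.36, -2.08, -2.12 and -2.54 in K8R/K16R cells. In K12R/K16R cells the values were -2.31, -2.03, -2.69 and -1.92. All 12 samples lay below every single mutant sample of K5R, K8R and K12R, and the fitted values of the 3 mutants (-2.29 ± 0.13, -2.27 ± 0.13 and -2.22 ± 0.13) differed by less than their standard errors. The background of lower calls was 13.4% in K5R/K16R, 11.5% in K8R/K16R and 13.3% in K12R/K16R cells. HXT16 averaged -2.23 ± 0.13 in K5R/K16R, -1.89 ± 0.41 in K8R/K16R and -2.31 ± 0.06 in K12R/K16R cells (n = 4 each). HXT17 averaged -1.95 ± 0.09, -1.95 ± 0.29 and -2.22 ± 0.15 in the same order, and HXT13 -1.88 ± 0.05, -1.92 ± 0.25 and -2.02 ± 0.17.

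Loss of 2 lysines lowered the transporters with lysine 16 intact as well. HXT15 had -1.59, -1.33, -1.32 and -1.42 in K5R/K8R cells. The K5R/K12R samples gave -1.87, -1.97 and -1.94, and the K8R/K12R samples -1.89, -1.98 and -1.52. The K5R/K8R samples were the highest of the 3 mutants except for 1 K8R/K12R sample at -1.52, which lay among them. Fitted values were -1.41 ± 0.13 in K5R/K8R, -1.93 ± 0.15 in K5R/K12R and -1.79 ± 0.16 in K8R/K12R cells, all called, as were the other 3 transporters in each of these mutants. The background of lower calls was 9.69% in K5R/K8R, 12.7% in K5R/K12R and 11.3% in K8R/K12R cells.

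All 4 transporters were also lower in the triple mutants. HXT15 had -2.37, -2.56 and -1.73 in K5R/K8R/K16R cells. In K5R/K12R/K16R cells it had -2.22, -2.12, -2.22 and -1.81, and in K8R/K12R/K16R cells -2.26, -2.03, -1.77 and -1.82. The 5 samples of K5R/K8R/K12R, with lysine 16 intact, gave -1.79, -2.08, -1.94, -1.68 and -1.49. The groups overlap. The mean over all 4 transporters was -2.19 in K5R/K8R/K16R, -1.91 in K5R/K12R/K16R, -1.87 in K8R/K12R/K16R and -1.72 in K5R/K8R/K12R cells. All 4 transporters were called lower in each, where 21%, 28%, 23.1% and 30.1% of all genes were called lower in that order of mutants.

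The quadruple mutant was higher than the triple mutants in some transporters, and 1 of its strains stood apart. HXT15 had -1.74, -1.59, -0.88 and -1.79 in the 4 quadruple samples, HXT16 -1.72, -1.39, -0.85 and -1.41, HXT13 -1.93, -1.48, -0.83 and -1.73 and HXT17 -2.16, -1.54, -0.57 and -1.67. The third sample, the averaged technical pair of strain MDY487, was the highest for each gene, apart from the other 3. The fitted values were -1.47 ± 0.12 for HXT15, -1.32 ± 0.12 for HXT16, -1.46 ± 0.14 for HXT13 and -1.45 ± 0.15 for HXT17, all called lower, as were 36.6% of all genes. Without strain MDY487 the remaining 3 samples averaged -1.70 ± 0.10 for HXT15, -1.51 ± 0.19 for HXT16, -1.71 ± 0.23 for HXT13 and -1.79 ± 0.32 for HXT17.

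Counted by the number of lysines lost, the transporters were lower in double than in single mutants and were not called lower in triple than in double mutants. The contrasts by number, and those for single added substitutions, were chosen after the values were seen. All 6 members were lower in double than in single mutants, against a background of 5.49% lower. The difference was -0.92 ± 0.09 for HXT16 (adjusted p = 1.61e-10), -0.90 ± 0.09 for HXT15, -0.85 ± 0.11 for HXT17 and -0.77 ± 0.10 for HXT13, and smaller for SOR2 (-0.46 ± 0.08) and SOR1 (-0.43 ± 0.09, adjusted p = 0.00111). Within MDY453 arrays the difference of HXT16 was -0.94 and within MDY470 arrays -0.88, both called. Neither dehydrogenase gene was called within MDY453 arrays, at -0.45 for SOR1 and -0.48 for SOR2.

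No transporter was called between triple and double mutants. The difference ranged from -0.11 ± 0.09 for HXT16 to -0.04 ± 0.09 for HXT15, with adjusted p between 0.31 and 0.715 while 23.5% of all genes were called lower and 24.2% higher. Within MDY470 arrays, which hold no K5R/K12R/K16R sample, HXT15, HXT16 and HXT17 were called lower in triple mutants, at -0.22, -0.28 and -0.29. The dehydrogenase genes were higher in triple than in double mutants, by 0.55 ± 0.09 for SOR1 (adjusted p = 1.15e-06) and 0.39 ± 0.08 for SOR2 (adjusted p = 3.93e-05), and both were called within each parental strain's arrays.

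The quadruple mutant was higher than the mean of the triple mutants by 0.66 ± 0.14 for HXT16 (adjusted p = 7.03e-05), 0.55 ± 0.14 for HXT15, 0.50 ± 0.12 for SOR2 and 0.44 ± 0.17 for HXT17. HXT13 (0.35 ± 0.16, adjusted p = 0.0504) and SOR1 (0.32 ± 0.14, adjusted p = 0.0552) were not called. Of all genes, 30.2% were called higher in this contrast. Without strain MDY487, 1 of the 6 members was called, HXT16. The quadruple and K8R/K12R mutants had no sample marked (s) in its title, while every other mutant did. The labels do not say what (s) means. Its part in this contrast, and in single steps to or from those mutants, was not tested.

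The effect of K16R on the transporters depended on which lysines were already lost. K16R added to K5R lowered HXT16 by 1.71 (fitted change -1.71 ± 0.19, adjusted p = 2.51e-09) and HXT15 by about as much (-1.69 ± 0.20). Added to K8R it changed HXT15 by -1.66 ± 0.20 and HXT13 by -1.29 ± 0.22, and added to K12R it changed HXT16 by -1.22 ± 0.19 and HXT17 by -1.17 ± 0.23. All 4 transporters were called lower in each of these steps, where 3.07% of all genes were called lower on K5R, 3.05% on K8R and 2.44% on K12R, and each of these 12 calls held whichever sample was left out. K16R added to K5R/K8R also lowered all 4, by 0.82 for HXT15 to 0.95 for HXT16, where 4.44% of all genes were lower. Of these 4 calls, that of HXT16 held whichever sample was left out.

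Where lysine 12 was already replaced in a double or triple mutant, no transporter was called lower on adding K16R. On K5R/K12R the changes were -0.14 ± 0.20 for HXT15 and -0.12 ± 0.19 for HXT16, and on K8R/K12R -0.20 ± 0.21 and -0.24 ± 0.21, none called, while 9.78% of all genes were called on K8R/K12R. Both steps mixed parental strains. K5R/K12R had 1 sample against MDY453 and 2 against MDY470, while K5R/K12R/K16R had MDY453 samples only. K8R/K12R had MDY470 samples only, while K8R/K12R/K16R had 3 against MDY453 and 1 against MDY470. The parental strain was not a term in the fit of these steps. Within MDY470 arrays, HXT15 (-0.46) and HXT16 (-0.62) were called lower on K8R/K12R, a comparison with 1 K8R/K12R/K16R sample, which is assumed to vary like the other groups. On K5R/K8R/K12R, HXT16 was higher with K16R (0.46 ± 0.17, adjusted p = 0.0283), a step in which 23.6% of all genes were higher. The call was lost without strain MDY487.

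K12R also lowered transporters when few lysines were lost. It lowered all 4 transporters on K5R, for example HXT15 by 1.33 (-1.33 ± 0.21, adjusted p = 1.63e-04), where 0.632% of all genes were lower, and 3 of 4 on K8R (0.614%), where HXT17 was not called (-0.91 ± 0.26, adjusted p = 0.068). On K16R only HXT17 was called among the transporters (-0.87 ± 0.23, with 1.44% of all genes lower), and on K5R/K8R only HXT16 (-0.49 ± 0.18, with 13.7%). Of these calls, those of HXT15 and HXT16 on K5R and on K8R held whichever sample was left out. On K5R the HXT13 call ended when any of 2 samples was left out and the HXT17 call when any of 4 was. The calls of HXT13 on K8R and of HXT17 on K16R each ended when any of 5 samples was left out, and that of HXT16 on K5R/K8R when any of 2 was. On K5R/K16R and K8R/K16R no transporter was called. Added to K5R/K8R/K16R, K12R raised all 4 transporters, as it did 26.9% of all genes, HXT16 by 0.92 ± 0.19 (adjusted p = 6.12e-05), HXT17 by 0.81 ± 0.23, HXT15 by 0.75 ± 0.19 and HXT13 by 0.63 ± 0.21. Without strain MDY487, HXT15 and HXT16 remained called in this step and HXT13 (0.39) and HXT17 (0.48) did not. K5R or K8R added to any single or double mutant changed no transporter past the threshold. The changes on single mutants were nevertheless below 0 for each transporter. K8R on K5R gave -0.60 ± 0.22 for HXT13 to -0.82 ± 0.20 for HXT15. K5R on K8R gave -0.64 ± 0.22 for HXT13 to -0.80 ± 0.20 for HXT15. On double mutants the changes went both ways, from -0.36 ± 0.19 (HXT16, K5R on K8R/K16R) to 0.42 ± 0.22 (HXT17, K5R on K12R/K16R).

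**Figure D2:**
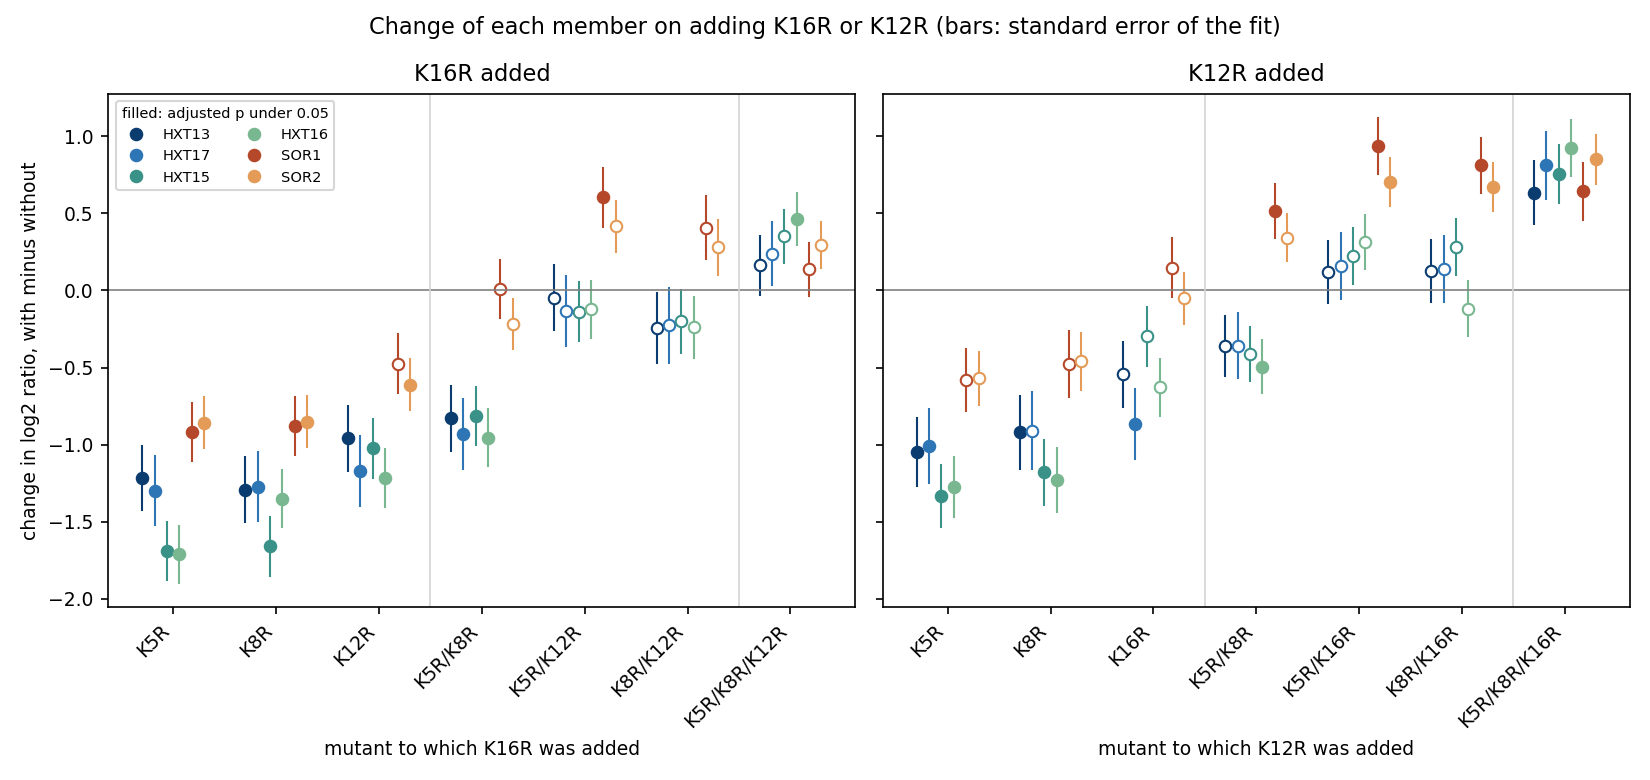
Change in log2 ratio (vertical axis, mutant with minus mutant without the added substitution) of each member when K16R (left) or K12R (right) was added to the mutant named on the horizontal axis, with standard errors; filled points were called. K16R lowered all 4 HXT genes when added to K5R, K8R, K12R or K5R/K8R, while the changes on K5R/K12R and K8R/K12R lie near 0.

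Over the 28 single steps, 53 of 168 member values were called, 23 higher and 30 lower, against 13.9% of all gene values called, 7.63% higher and 6.26% lower. Of these, 29 were called whichever single sample was left out. Of the 13 mutants with MDY470 arrays, 7 had 1 such sample, and of the 14 with MDY453 arrays 2. Within MDY470 arrays 53 of 126 steps were called, and within MDY453 arrays 7 of 144. The share of all genes called was not kept for either of these sets of arrays. Of the 28 transporter values for adding K16R, 16 were lower and 1 higher, and of those for K12R 9 were lower and 4 higher. Adding K5R or K8R gave 2 higher and 0 lower each. Shares of all genes were not pooled by added site, so these counts by site have no background of their own. The steps share mutants and are therefore not independent of each other.

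A model that gives all mutants a shared shift and adds 1 effect per site described the members only in part. The shift was called lower for all 6 members, -1.21 ± 0.17 for HXT15, -1.08 ± 0.17 for HXT16, -0.99 ± 0.15 for HXT13, -0.98 ± 0.16 for HXT17, -0.81 ± 0.13 for SOR1 and -0.51 ± 0.12 for SOR2, as it was for 25.8% of all genes. The site effects come on top of this shift and are not changes from the parental strain. Its K16R effect lowered HXT15 by 0.71 (fitted -0.71 ± 0.13, adjusted p = 1.32e-05), HXT16 (-0.69 ± 0.13), HXT17 (-0.62 ± 0.13) and HXT13 (-0.60 ± 0.12). Of all genes, 19% were lower. With arrays scaled to 1 spread, 1 of the 6 members was called. SOR1 (-0.15 ± 0.10, adjusted p = 0.263) and SOR2 (-0.19 ± 0.10, adjusted p = 0.105) were not called. The HXT15 effect was -0.74 within MDY453 arrays and -1.08 within MDY470 arrays. K5R and K8R had no called effect on any member, while 38.8% and 37.4% of all genes were called, and K12R raised SOR1 (0.37 ± 0.10) and SOR2 (0.30 ± 0.10), as it did 26.1% of all genes. Within MDY470 arrays neither was called, and K12R was called lower for all 4 transporters, from -0.51 for HXT13 to -0.72 for HXT16. The mean of the K5R, K8R and K12R effects was called higher for SOR1 (0.27 ± 0.06) and SOR2 (0.21 ± 0.06) and for 32.4% of all genes. Within MDY470 arrays this mean was called for neither (SOR1 0.10, SOR2 -0.03) and was called lower for all 4 transporters, from -0.40 for HXT13 to -0.48 for HXT16. K16R was lower than the mean of the other 3 sites for all 6 members, from -0.63 ± 0.14 for HXT15 to -0.41 ± 0.11 for SOR2, where 11.4% of genes were called lower. Within MDY453 arrays HXT15 (-0.72) and HXT16 (-0.60) were called, and the other 4 were not. With means per strain HXT13, HXT15 and HXT16 were called.

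A linear slope of the K16R effect on the number of other substitutions was positive in all 6 members. The change per other substitution was 0.78 ± 0.13 for HXT15 (adjusted p = 1.35e-04), 0.76 ± 0.13 for HXT16, 0.54 ± 0.14 for HXT17, 0.53 ± 0.13 for HXT13, 0.47 ± 0.11 for SOR2 and 0.46 ± 0.12 for SOR1. Of all genes, 3.57% were called higher in this test. Single steps did not follow the slope one by one, as SOR2 was -0.56 with K16R alone and changed by -0.86 when K16R was added to K5R and -0.85 when it was added to K8R. Within MDY453 arrays the change was 0.78 for HXT15 and 0.79 for HXT16, the 2 members called there. Within MDY470 arrays, which hold no quadruple mutant, it was 0.45 and 0.21, and no member was called.

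In a fit with the shared shift, the 4 site effects and the 6 products of pairs of sites, the products were positive in 36 of 36 member values and called in 23. They are not the difference between a double mutant and the sum of its single mutants, which was above 0 in 20 of 36 member values and below 0 in 16. For HXT15 that difference was 0.90 in K12R/K16R cells and -0.20 in K5R/K8R cells, with no test. The background for the products was 6.54% called higher. K12R with K16R gave the largest product of each of the 6 members, 1.40 ± 0.16 for HXT15 (adjusted p = 5.43e-08), 1.34 ± 0.16 for HXT16, 1.04 ± 0.20 for HXT17, 1.01 ± 0.18 for HXT13, 0.88 ± 0.14 for SOR2 and 0.88 ± 0.18 for SOR1. For this pair 7.17% of all genes were higher. K5R with K8R was called for none of the members and for 7.24% of all genes. Within MDY453 arrays 2 of the 36 products were called, and within MDY470 arrays 9. The count also depended on the shared shift and on scaling. With no intercept 7 of the 36 were called, and with arrays scaled to 1 spread 12.

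SOR1 and SOR2 were near the parental level in K5R, K8R and K12R cells and lower with K16R alone. In K16R cells SOR1 had -1.04, -0.85 and -0.81 and SOR2 -0.49, -0.68 and -0.48. The fitted values were -0.90 ± 0.15 for SOR1 (adjusted p = 7.87e-06) and -0.56 ± 0.13 for SOR2 (adjusted p = 0.00115). In K5R cells SOR1 had -0.12, -0.22 and -0.08 and SOR2 0.01, 0.11 and 0.18. No SOR1 or SOR2 value was called in K5R, K8R or K12R cells, where SOR1 averaged -0.14 ± 0.07, -0.14 ± 0.09 and -0.26 ± 0.17 and SOR2 0.10 ± 0.09, 0.01 ± 0.11 and 0.02 ± 0.25 (n = 3 each). All K16R samples of both genes lay below all 9 of these samples.

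Both dehydrogenase genes were lower in all 6 double mutants. SOR1 had -1.07, -1.16, -0.76 and -1.21 in K5R/K16R cells. In K8R/K16R cells SOR1 had -1.07, -1.11, -0.92 and -0.98, and in K12R/K16R cells -0.84, -0.86, -0.65 and -0.60. The first 2 mutants had the lowest fitted SOR1 values of the 15 mutants, -1.05 ± 0.13 and -1.02 ± 0.13. The lowest fitted value of SOR2 was in K8R/K16R cells, with samples at -0.90, -0.86, -0.66 and -0.94 (fitted -0.84 ± 0.11). With lysine 16 intact, SOR1 averaged -0.58 ± 0.13 in K5R/K8R (n = 4), -0.71 ± 0.14 in K5R/K12R and -0.62 ± 0.12 in K8R/K12R cells (n = 3 each), and SOR2 averaged -0.32 ± 0.12, -0.46 ± 0.16 and -0.45 ± 0.15. The SOR2 calls in these 3 mutants each ended when 1 sample was left out.

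In the triple mutants that hold K12R the dehydrogenase genes were near 0. SOR1 had -0.27, -0.10, -0.37 and 0.16 in K5R/K12R/K16R cells and SOR2 -0.15, -0.14, -0.19 and 0.18. In K8R/K12R/K16R cells SOR1 had -0.27, -0.21, -0.09 and -0.27 and SOR2 -0.38, -0.14, 0.03 and -0.10. In K5R/K8R/K12R cells SOR1 had -0.14, 0.04, 0.02, -0.18 and -0.11 and SOR2 0.15, -0.00, 0.03, -0.06 and 0.01. None of these 6 values was called. K5R/K8R/K16R, the triple mutant that keeps lysine 12, was called lower, with -0.52, -0.64 and -0.55 for SOR1 (fitted -0.57 ± 0.15, adjusted p = 0.00159) and -0.62, -0.50 and -0.46 for SOR2 (fitted -0.53 ± 0.13).

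The 4 quadruple samples spread widely. SOR1 had -0.64, 0.20, 1.07 and -0.55 and SOR2 -0.26, 0.50, 1.07 and -0.23. The 2 samples of strain MDY486 (the first and the fourth) lay below 0, and those of MDY469 and MDY487 above it. SOR2 was called higher (0.32 ± 0.11, adjusted p = 0.00763) and SOR1 was not called (0.08 ± 0.12), where 37.2% of all genes were higher. Without strain MDY487 SOR2 was not called (fitted 0.03, adjusted p = 0.763), and SOR1 was called lower (fitted -0.30, adjusted p = 0.00866). The SOR2 call also ended without the second sample, of strain MDY469 (fitted 0.25, adjusted p = 0.0755).

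K12R raised SOR1 and SOR2 when lysine 16 and 1 other lysine were already lost. On K5R/K16R, SOR1 was 0.94 ± 0.19 higher with K12R (adjusted p = 1.17e-04) and SOR2 0.70 ± 0.16 higher. On K8R/K16R the changes were 0.81 ± 0.19 for SOR1 and 0.67 ± 0.16 for SOR2. These 4 calls held whichever sample was left out, where 15.9% of all genes were higher on K5R/K16R and 8% on K8R/K16R. On K5R/K8R/K16R both were higher as well (0.64 ± 0.19 and 0.85 ± 0.17), with SOR1 lost without strain MDY487. K16R lowered both genes on K5R (-0.92 ± 0.20 for SOR1 and -0.86 ± 0.17 for SOR2) and on K8R (-0.88 ± 0.20 and -0.85 ± 0.17). On K5R/K12R, K16R raised SOR1 (0.60 ± 0.20, adjusted p = 0.0231), a call lost when any of 3 samples was left out, with 12.1% of all genes higher. Of the 14 dehydrogenase values for adding K12R, 7 were higher and 0 lower, and of those for K16R, 1 was higher and 5 lower. Adding K5R gave 4 higher and 0 lower, and adding K8R 2 higher and 0 lower. Over all 28 steps 7.63% of all gene values were higher and 6.26% lower. SOR1 and SOR2 were also called higher for K5R on K12R/K16R (0.64 ± 0.19 and 0.56 ± 0.16) and for K8R on K5R/K12R (0.66 ± 0.19 and 0.49 ± 0.17). Each of these calls could be lost by leaving out 1 sample.

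The log2 ratio of each dehydrogenase gene stayed above that of the transporter gene beside it. SOR2 was above HXT15 in 54 of 54 samples, with a median difference of 1.47, and SOR1 above HXT16 in 54 of 54, with a median of 1.19. These are differences between log ratios of 2 probes and not between levels. The mean of the 2 dehydrogenase genes minus the mean of the 4 transporters was 0.54 ± 0.18 in K8R and 0.58 ± 0.12 in K5R cells (n = 3 each), 0.88 ± 0.10 in K16R cells (n = 3) and 1.53 ± 0.20 in K12R/K16R cells (n = 4). It was 1.65 ± 0.22 in K5R/K8R/K16R (n = 3), 1.69 ± 0.23 in K5R/K8R/K12R (n = 5), 1.70 ± 0.22 in K8R/K12R/K16R (n = 4), 1.80 ± 0.20 in K5R/K12R/K16R (n = 4) and 1.60 ± 0.30 in the quadruple mutant (n = 4). All triple and quadruple samples, at 1.26 or more, lay above all K5R and K8R samples, at 0.70 or less. This difference was described and not tested.

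**Figure D3:**
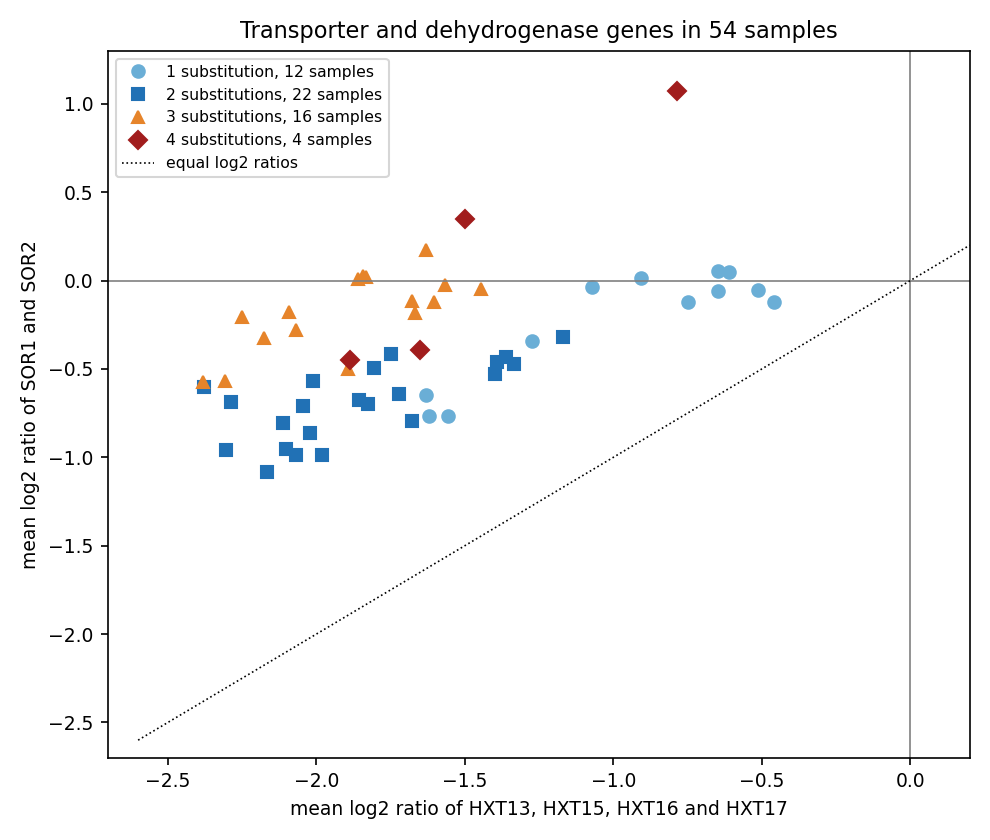
Mean log2 ratio of SOR1 and SOR2 (vertical axis) against the mean log2 ratio of the 4 HXT genes (horizontal axis), 1 point per sample, marked by the number of substitutions; the dotted line marks equal ratios. All 54 points lie above the line, and samples with 3 substitutions lie mostly above samples with 2 at similar HXT values.

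Near-identical copies had similar ratios. HXT13 and HXT17, on different chromosomes, differed by a median of 0.058 per sample (r = 0.980 over 54 samples). HXT15 and HXT16 differed by a median of 0.141, and SOR1 and SOR2 by 0.173, with SOR1 the higher in 4 of 54 samples. Similar ratios were not confined to these pairs. HXT13 and HXT15, which belong to different pairs, differed by a median of 0.204 (r = 0.919). The r values are descriptions, since samples of a mutant share their strains. Shared probe signal, between the copies of a pair or between the pairs, was not tested.

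Genes beside the members ranged from lower to higher. Of 34 annotated neighbours within 5 genes on either side, 31 were measured. Their median over mutants ranged from -2.59 to 0.30 with a midpoint of -0.14. Those called lower in at least 12 mutants were 6, against 83 (1.5%) of all genes, and those with a median under -1 were 3, against 29 (0.523%) of all genes. COS10, of a subtelomeric membrane protein family, had a median of -2.59, AIF1, a gene of programmed cell death, -1.33, and YDL241W -1.10. COS10 and AIF1 lie outside HXT17, but MAN2 between AIF1 and HXT17 had a median of -0.15. MPH2 and MPH3, maltose permease genes just outside SOR2 and SOR1, were called lower in 12 and 11 mutants, with medians of -0.68 and -0.42. COS7, the next gene outside MPH2, was called higher in 9 mutants and lower in 0 (median 0.30). THI13 and THI11, thiamine pyrimidine synthesis genes on the inner side of HXT15 and HXT16, were called higher in 5 and 4 mutants and lower in 2 each.

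DSF1 and MAN2, the mannitol dehydrogenase genes beside HXT13 and HXT17, were not lower throughout as their transporter neighbours were. They are near-identical copies and share the limit on probes given above. DSF1 was lower in K16R cells (-0.32 ± 0.09, adjusted p = 0.0056) and in K5R/K8R cells (-0.33 ± 0.08), and higher in K5R/K8R/K12R cells (0.62 ± 0.07), K8R/K12R/K16R cells (0.49 ± 0.08), K5R/K12R/K16R cells (0.39 ± 0.08) and the quadruple mutant (0.63 ± 0.07). MAN2 gave -0.27 ± 0.08 in K16R cells, 0.51 ± 0.07 in K5R/K8R/K12R cells and 0.54 ± 0.07 in the quadruple mutant, all called. In K5R/K8R/K16R cells neither was called (DSF1 0.15 ± 0.09, MAN2 0.17 ± 0.08). The 2 genes thus passed above the parental level in the triple mutants with K12R, where the transporters beside them were called lower.

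**Figure D4:**
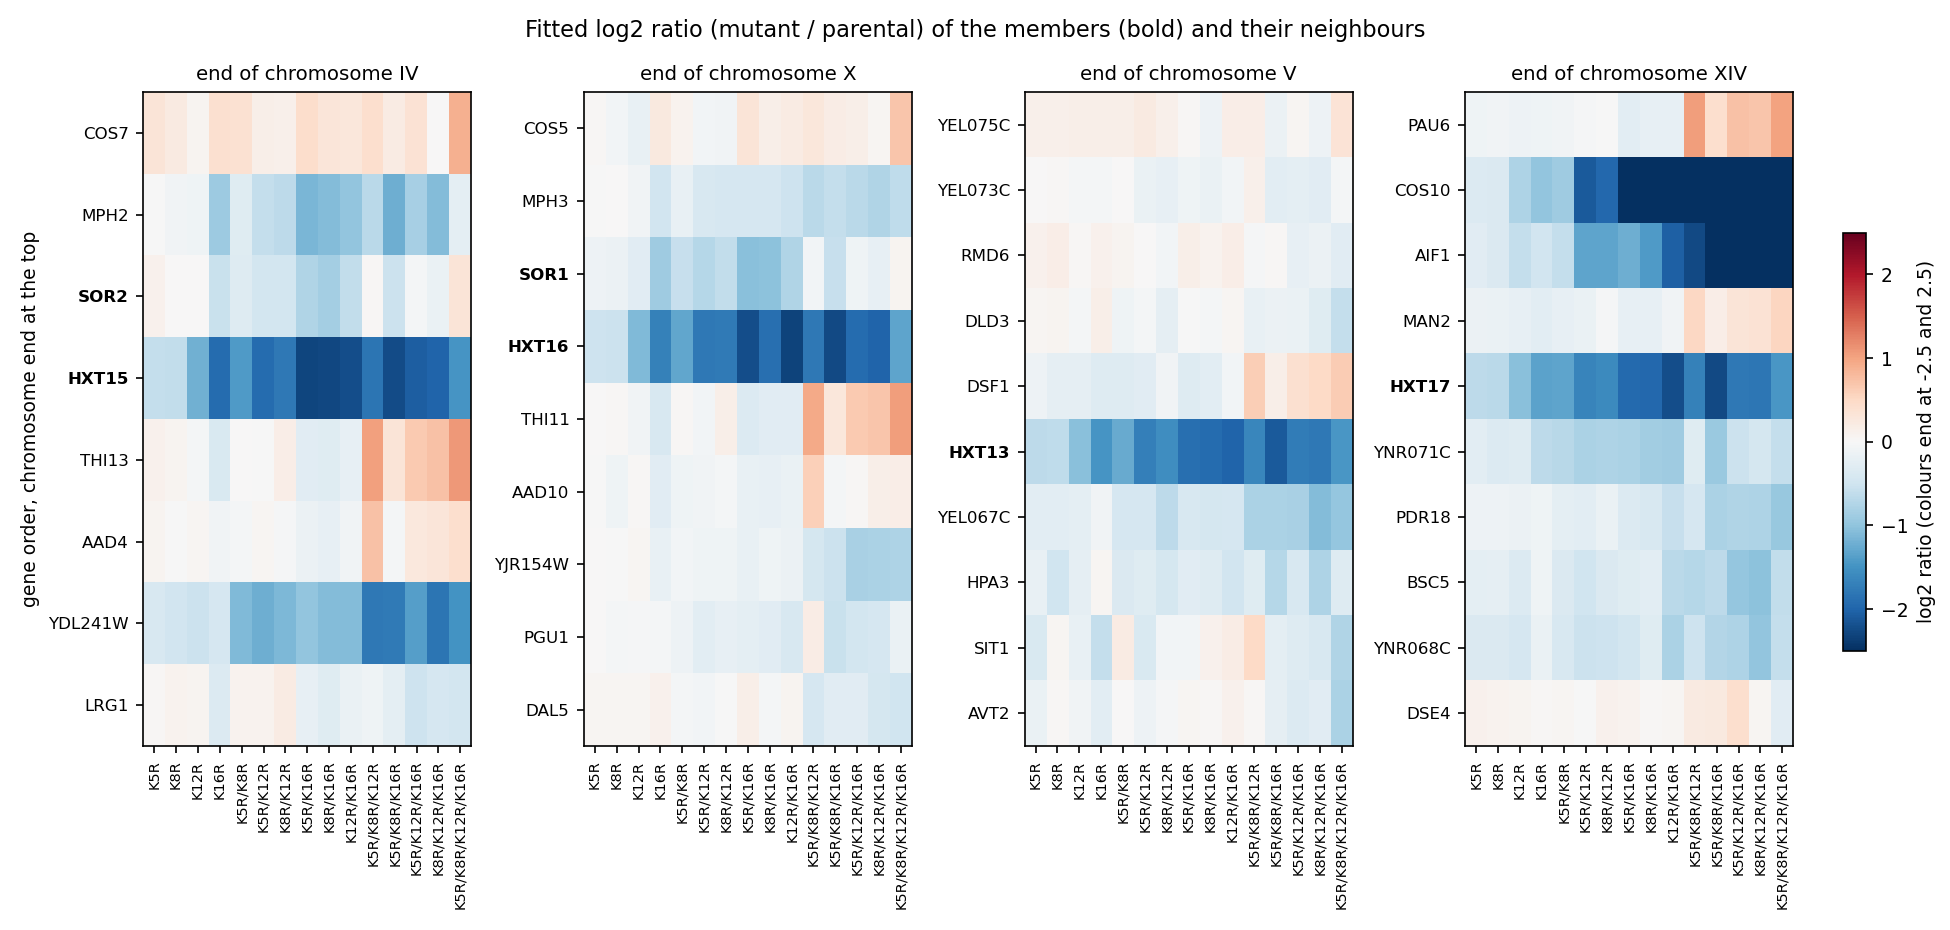
Fitted log2 ratio (colour, blue lower and red higher in the mutant) of the members, in bold, and their measured neighbours in the 15 mutants (columns), with genes in chromosome order and the chromosome end at the top. HXT15, HXT16, HXT13 and HXT17 are blue in every column, while DSF1, MAN2, THI11 and THI13 beside them turn red in the triple mutants with K12R and in the quadruple mutant.

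Other sugar transport and carbon source genes were called in both directions. Of 16 other hexose transporter and sensor genes, the additive K16R effect was called higher for 6 and lower for 2. Their median was 0.04, and of all 5540 genes 1130 were higher and 1050 lower. This effect comes on top of the shared shift and is not a change from the parental strain. In the K16R mutant itself 0 of the 16 were called higher and 3 lower, against 479 higher and 542 lower of all genes. By the additive effect HXT5, a transporter of slow growth, was higher (0.41 ± 0.07), as were HXT3 (0.22 ± 0.05), HXT7 (0.28 ± 0.06) and HXT4 (0.31 ± 0.07). In the quadruple mutant 10 of these 16 genes were called higher and 5 lower, against 2060 higher and 2026 lower of all 5540 genes. For 9 mannitol and polyol genes the additive K16R effect was called higher for 4 and lower for 0, led by GCY1 (0.39 ± 0.06), a glycerol dehydrogenase gene. In the K16R mutant 1 of the 9 was called higher and 2 lower, DSF1 and MAN2. Of 18 glucose-repressed genes the additive K16R effect was called higher for 6 and lower for 1. Among the higher were HAP4 (0.51 ± 0.06), a respiratory activator gene, and FBP1 (0.52 ± 0.06), a gluconeogenesis gene. In the K16R mutant 1 of the 18 was called higher and 2 lower.

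Maltose and alpha-glucoside genes near ends, of which 13 were measured, were called lower in 5 cases and higher in 1 for the additive K16R effect (median -0.07). By that effect MPH2 (-0.56 ± 0.10) and MPH3 (-0.33 ± 0.05) were lower and MAL11, an alpha-glucoside permease gene, was higher (0.20 ± 0.04). In the K16R mutant 8 of the 13 were called lower and 0 higher, with a median of -0.41. Of 16 carbon source regulators the additive K16R effect was called higher for 6 and lower for 1. In the K16R mutant 1 was called higher and 1 lower. By the additive effect MTH1 (0.41 ± 0.04) and RGT1 (0.29 ± 0.06), which repress HXT genes when glucose is absent, were higher, as was the corepressor gene TUP1 (0.32 ± 0.06). Of 17 chromatin regulators of chromosome ends the additive K16R effect was called higher for 2 and lower for 4. Of all 5540 genes 1130 were higher and 1050 lower. In the K16R mutant 1 of the 17 was called higher and 1 lower. By the additive effect SAS5 (-0.32 ± 0.04) and SAS2 (-0.17 ± 0.04), of the complex that acetylates lysine 16 of H4, were lower. SAS4, also of that complex and on the list, has no value given here. SIR2 (0.00 ± 0.08), SIR3 (-0.06 ± 0.03) and SIR4 (0.01 ± 0.04) were not called.

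The outermost 10 annotated genes of each chromosome end, 284 measured genes that include the members, held more genes called lower in most mutants. Of these, 15 (5.28%) were called lower in at least 13 mutants, against 26 (0.469%) of all genes, and their median over mutants was -0.09. In double against single mutants 87 were called lower and 6 higher, against 304 lower and 240 higher of all genes. In the quadruple against the triple mutants 123 were higher and 30 lower, against 1675 higher and 1349 lower of all genes.

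The genes whose mutant means were most like those of the transporters (Pearson r over 15 mutant means, given as a description) were led by YIL175W for all 4, with r from 0.937 for HXT15 to 0.955 for HXT17. HFM1, a meiotic helicase gene, came among the 4 nearest of each transporter (r 0.931 to 0.948). YIL175W ranged from -1.60 to -0.21 over the mutants. For HXT16 the copper metallothionein genes CUP1-1 and CUP1-2 followed (r = 0.933 each). The nearest gene to SOR1 was SNO4 (r = 0.934), which ranged from -0.75 to -0.03, followed by the yapsin protease genes YPS6 (0.925) and YPS5 (0.924). The nearest to SOR2 was MAL32, a maltase gene (r = 0.931). Among the members, r between transporters was 0.952 or more, and r between SOR1 and the transporters 0.463 to 0.594 and between SOR2 and the transporters 0.612 to 0.701.

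The arrays hold a second large difference that goes with K16R. All 7 genes specific to cells of mating type a and all 7 haploid genes examined were called lower for the K16R effect. The summed log2 ratio of the a-cell genes ranged from -22.3 to -8.17 in the 30 samples with K16R and from -0.61 to 2.57 in the 24 samples without, and that of the haploid genes from -17.3 to -9.62 and from -3.29 to 0.23. Of 5 alpha-cell genes the K16R effect was called higher for 3 and lower for 1, and in the K16R mutant 0 were higher and 2 lower. The part of these changes in the members' K16R values was not tested. The transporters were below 0 in all 24 samples without K16R, as in the 30 with it. HXT15 ranged from -2.69 to -0.88 with a median of -2.09 in the samples with K16R, and from -2.08 to -0.46 with a median of -1.45 in those without.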

How the data were processed

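Log2 ratios were taken as deposited: the authors' processed value table, 55 arrays by 6720 probes, with the scale unstated and base 2 inferred from its limit at 6.64, the log2 of 100. Background correction and normalization are not stated, scanner intensities were not used here, and the number of arrays limits the precision. Of the probes 5570 had 1 gene and 1150 none, and 5565 matched the RefSeq table, which was used for names and gene order only. Missing values numbered 5583, a further 4346 at the limit were set to missing, and each array was centred on its median. The technical pair of MDY487 was averaged (r = 0.908), leaving 54 samples of 30 strains. limma 3.58.1 in R 4.3.3 (lmFit, eBayes, two-sided, Benjamini-Hochberg over 5540 genes) fitted a mean per mutant and a model of 4 site effects, with strain as a random block (correlations 0.205 and 0.346); the fits were tested on simulated data. The members and all gene lists were chosen with earlier results of these data known, and the contrasts by step and by number after the values were seen. Named genes were the members, up to 5 neighbours on either side, the 4 genes most like each member and up to 4 genes per list by the size of the moderated statistic; STL1, IMA2, SIR2, SIR3 and SIR4 were named after their values were seen. Alternatives covered the block, intercept, parental strain, centring, scaling, filters and each sample left out.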

Additional observations from a re-analysis of the deposited data

Results flagged for a closer look

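In all 6 members the K16R effect had a positive linear slope on the number of other substitutions, tested as an interaction over 54 samples of 30 strains with limma. Within MDY470 arrays 0 members were called, within MDY453 arrays 2 and with means per strain 2. The change per other substitution was 0.53 for HXT13 (adjusted p = 0.0105), 0.54 for HXT17 (0.0176), 0.78 for HXT15 (0.000135), 0.76 for HXT16 (0.000239), 0.46 for SOR1 (0.0147) and 0.47 for SOR2 (0.00626).

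Of 48 sets of 4 or 5 samples of 1 member in 1 mutant, 2 held a sample far from the others by Dixon's ratio, where chance gives about 1 in 20. SOR2 had -0.76 in the second K12R/K16R sample (ratio 0.883) and 0.18 in the fourth K5R/K12R/K16R sample (ratio 0.860). The K12R/K16R sample was the only 1 of strain MDY481 and the only 1 of that mutant against MDY470, and the K5R/K12R/K16R sample was the only 1 of strain MDY484.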

How the results depend on the processing

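Counts of the 6 members called were recomputed under other settings. With no intercept, 4 members were called for K5R, 3 for K8R, 4 for K12R, 4 for the mean of these sites and 7 of 36 products. With arrays scaled to 1 spread the counts were 3 for K8R, 1 for K16R, 6 for the mean, 12 products and 6 for triple against double mutants. Without a strain block they were 4 for K12R and 4 for the mean. Means per strain gave 1 for K12R, 3 for K16R minus the mean and 2 for the change of the K16R effect. The parental strain as a term gave 5 and no centring 4 for the mean. MDY453 arrays alone gave 2 for K16R minus the mean, 2 for the change of the K16R effect, 2 products, 47 of the mutant values and 7 of the steps. MDY470 arrays alone gave 2 for K5R, 2 for K8R, 4 for K12R, 4 for the mean, 0 for the change of the K16R effect, 9 products and 5 for triple against double mutants. The 4 called there for K12R and for the mean were the transporters, lower, and not the SOR genes. The cause was not tested.

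Leaving out 1 sample gave 0 to 1 members for K8R, 2 to 5 for K12R, 2 to 5 for the mean and 1 to 6 for quadruple against triple mutants, with the extreme of the last 3 without strain MDY487. The K8R effect then ranged from -0.074 to 0.049 for HXT15 and from -0.061 to 0.055 for HXT16.

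Single effects turned sign in these cases, none of them called in the fit over all samples except the K12R effect of SOR2. With arrays scaled to 1 spread the K5R, K8R and K12R effects were 0.37, 0.37 and 0.31 for HXT13 and 0.37, 0.32 and 0.32 for HXT17. The K5R and K12R effects were 0.48 and 0.41 for HXT15 and 0.41 and 0.27 for HXT16. On MDY453 arrays the K8R effect was 0.042 for HXT13 and 0.029 for HXT17. The K8R effect of HXT15 was -0.014 without a block, -0.45 with no intercept, -0.013 with the parental strain as a term, -0.31 on MDY470 arrays and -0.010 with no centring, and that of HXT16 -0.0045, -0.39, -0.0068 and -0.30 under the first 4 of these. With no intercept K5R and K8R were -0.12 and -0.072 for SOR1 and -0.0039 and -0.048 for SOR2. On MDY470 arrays K5R, K8R and K12R were -0.028, -0.030 and -0.041 for SOR2. The other single effects kept their sign: 343 kept their side of the threshold, 29 passed it and 26 lost it.

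In the labels, samples of different mutants share a replicate number, a parental strain and title marks such as (s). With the replicate number as a replicate block 77 mutant values, 58 steps and 25 products were called, against 72, 53 and 23. The labels do not say what (s) means, and no fit held it as a term. HXT13 had -2.23 with (s) and -1.29 and -1.96 without it in strain MDY467. In strain MDY461 HXT13 had -1.86 with (s) and -1.90 without it.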
